A study of Mus musculus with 8 samples.

Results

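The genes described are those of the acetylcholine receptor and its clustering pathway at the neuromuscular junction: the 5 subunit genes of the muscle acetylcholine receptor (Chrna1, Chrnb1, Chrnd, Chrng and Chrne), and Musk, Dok7, Rapsn, Agrn and Lrp4, which act in receptor clustering. They were chosen by gene symbol, and all 10 were found in both deposited tables, which list 52338 and 52139 genes. The libraries carry the label C2C12, an immortalised mouse myoblast line of wild-type genotype that fuses into myotubes when growth factors are withdrawn. The first table holds 3 libraries of cells given ginsenoside Re, a saponin of ginseng, and 3 DMSO libraries. The second holds 1 library of cells given GBC (ginseng berries concentrate) and 1 DMSO library. DMSO is the solvent control of both. No dose or treatment time is stated in the labels, which call the cells myoblasts, whereas the design text of the series has the word myocytes. Nothing in the labels says that replicates came from separate cultures, so p-values measure the spread between these samples, which may be technical.

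At the neuromuscular junction the motor nerve releases acetylcholine onto a pentameric receptor channel, built from alpha, beta and delta subunits with a gamma subunit in the fetus or an epsilon subunit in the adult. Agrin from the nerve binds the receptor LRP4, which activates the kinase MuSK together with the adaptor DOK7, and rapsyn then holds the acetylcholine receptors in dense clusters. In textbook accounts of cultured muscle cells, receptor subunit genes are under the control of MyoD and its relatives, and several of them rise when myoblasts become myotubes.

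Levels are in TPM (transcript abundance from reads per transcript length, scaled within a library), so levels of different genes can be compared within a library. The listed TPM summed to between 704657 and 743269 in the Re libraries, to between 642180 and 716589 in their DMSO libraries, and to 479938 and 403442 in the GBC library and its DMSO library. A complete listing of TPM sums to 1000000 per library, so part of each total is missing from the listed genes, and more in the GBC table. TPM keep no read depth, so depth and the precision it gives are unknown here. Values were compared by tests within a table alone, and any level set across the tables is a description.

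The cells of the tables did not show the same identity genes, although all carry the label of a myoblast. The defining myoblast genes Myod1, Myf5 and Cdh15 were listed at 0 in both the GBC library and its DMSO library, as was the satellite cell gene Pax7, which was also near 0 in the Re table (0 to 0.13 TPM). In the 6 libraries of the Re table Myod1, a master factor of muscle fate, ran from 9.95 to 13.6 TPM, and Myf5, its close relative, from 30.2 to 34.2 TPM. The summed level of the 6 myoblast markers was 191.0 to 203.5 TPM in the Re libraries, 191.3 to 210.4 TPM in their DMSO libraries and 3.57 to 3.87 TPM in the GBC table. Fibroblast and mesenchymal markers were present in both tables: the 8 on the list summed to 278.4 to 319.2 TPM in Re, 221.0 to 316.4 TPM in DMSO of the same table and 113.8 to 179.7 TPM in the GBC table. Thy1, a surface protein of fibroblasts, was at 22.1 TPM in the GBC library and 23.8 TPM in its DMSO library, and at 0 to 0.08 TPM in the Re table. Of the others on that list, Ly6a and Pdgfra were also higher in both libraries of the GBC table than in any of the Re table. Col1a1 had the higher mean in the GBC table through the GBC library alone, at 46.64 TPM. In its DMSO library Col1a1 was at 10.94 TPM, below the lowest value of the Re table, 12.91 TPM. The collagen gene Col3a1, by contrast, averaged 235.5 TPM over the Re table and 29.6 TPM over the GBC table. Pdgfrb averaged 15.0 TPM over the Re table and 2.52 TPM over the GBC table, and Dcn and Lum were near 0 in both tables. Of the 10 markers of differentiated fibres only Acta1, skeletal actin, averaged at least 1 TPM in the Re table, and Myog, the factor that starts differentiation, was at 0 in the 3 Re libraries and at 0, 0.30 and 0.13 TPM in the 3 DMSO libraries. The 9 neuron and Schwann cell markers summed to 127.1 to 138.2 TPM in Re and 103.2 to 143.9 TPM in DMSO of the same table, nearly all of it from Tubb3, a tubulin, and to 0.80 to 1.18 TPM in the GBC table, where Tubb3 was at 0. Of 6 endothelial and immune markers only Cd68 averaged over 1 TPM in the Re table, and none did in the GBC table.

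Among the receptor subunits, Chrna1 and Chrnb1 were expressed in the Re table, while Chrnd was far lower and Chrng and Chrne were at or near 0. Chrna1 (ENSMUSG00000027107), which encodes the alpha subunit that carries most of the acetylcholine binding site, had the highest level of the 10 genes. It was at 25.6, 27.0 and 26.5 TPM in the Re libraries, against 27.4, 24.7 and 27.0 TPM in the DMSO libraries. The groups overlapped, and the 6 values lay close together, with a highest value 1.11 times the lowest. Chrnb1 (ENSMUSG00000041189), the beta subunit gene, was at 17.1, 15.3 and 19.2 TPM in Re and at 14.6, 13.6 and 18.1 TPM in DMSO. Replicate 3 was the highest of both groups, and the groups overlapped. Chrnd (ENSMUSG00000026251), the delta subunit gene, was at 0.23, 0.30 and 0.23 TPM in Re and at 0.15, 0.21 and 0.41 TPM in DMSO, so that Chrna1 exceeded it 90.1-fold to 115.2-fold in Re and 66.0-fold to 182.7-fold in DMSO. Chrng (ENSMUSG00000026253), the fetal gamma subunit gene, was listed at 0 in 4 of the 6 libraries and at 0.05 TPM in Re replicate 3 and 0.07 TPM in DMSO replicate 3. Chrne (ENSMUSG00000014609), the adult epsilon subunit gene, was listed at 0 in all 8 libraries. An exact 0 in such a file can also be a failed estimate.

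Summed over the 5 subunit genes, the level was 42.9, 42.6 and 45.96 TPM in the Re libraries and 42.1, 38.6 and 45.6 TPM in their DMSO libraries. Chrna1 made up 59.7%, 63.4% and 57.6% of this sum in Re and 65.1%, 64.1% and 59.3% in DMSO, and Chrnb1 nearly all the rest. Chrnd held at most 0.704% of the sum in Re and 0.90% in DMSO. The ratio of Chrna1 to Chrnb1, which does not depend on how a library was scaled, was 1.50, 1.76 and 1.38 in Re and 1.88, 1.81 and 1.50 in DMSO, with overlap between the groups.

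**Figure D1:**
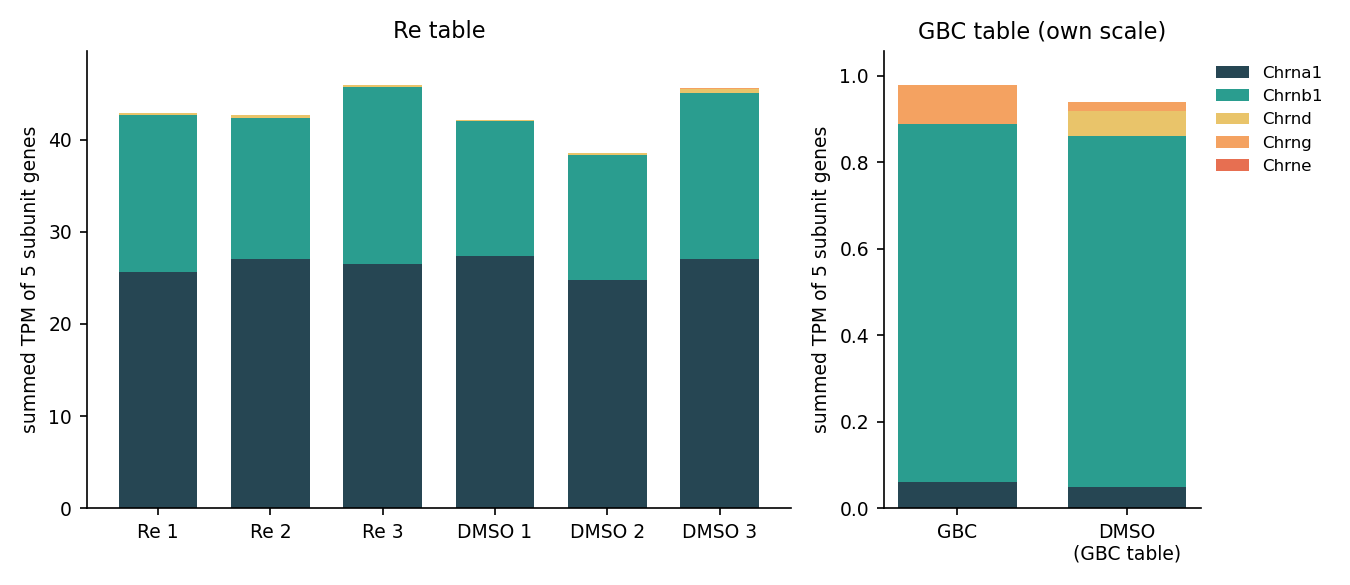
Stacked bars give the TPM of the 5 acetylcholine receptor subunit genes in each library, for the Re table on the left (3 Re, 3 DMSO) and for the GBC table on the right, whose axis has its own scale. Chrna1 and Chrnb1 fill the bars of the Re table, which reach 38.6 to 45.96 TPM, while the sums of the GBC table are 0.98 TPM in the GBC library and 0.94 TPM in its DMSO library.

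The clustering genes were all expressed in the Re table, at lower levels than Chrna1 and Chrnb1. Rapsn (ENSMUSG00000002104), the gene of the receptor scaffold rapsyn, was the highest of them, at 13.9, 10.9 and 11.9 TPM in Re and 13.2, 12.3 and 12.4 TPM in DMSO. Its Re values spread on both sides of the DMSO values. Agrn (ENSMUSG00000041936), the gene of agrin, was at 9.19, 9.82 and 11.1 TPM in Re and at 9.0, 8.07 and 8.58 TPM in DMSO. The Re values were all above those of DMSO, though the nearest were 9.19 TPM in Re and 9.0 TPM in DMSO. Muscle cells make an agrin form that clusters receptors weakly, whereas nerve cells splice in short exons that make it potent, and values per gene do not separate these forms. Musk (ENSMUSG00000057280), the receptor kinase at the core of the postsynaptic pathway, was at 5.15, 6.46 and 5.71 TPM in Re and 4.90, 4.68 and 4.58 TPM in DMSO. Here too the groups did not overlap, with Re replicate 2 the highest of the 6. Lrp4 (ENSMUSG00000027253), the agrin receptor, was at 3.47, 2.09 and 2.95 TPM in Re and at 2.89, 2.42 and 2.91 TPM in DMSO, and Re held both the highest and the lowest value. Dok7 (ENSMUSG00000044716), the activator of MuSK, was at 2.49, 1.51 and 1.87 TPM in Re and 2.11, 1.72 and 1.91 TPM in DMSO, where again Re replicate 1 was the highest and Re replicate 2 the lowest.

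Rapsn, Lrp4 and Dok7 thus shared their extremes, with Re replicate 1 highest and Re replicate 2 lowest of the 6 libraries in each, while Musk was at its highest in Re replicate 2. For these 4 genes the Re libraries also varied more than the DMSO libraries. The coefficient of variation of Rapsn was 12.7% in Re and 4.12% in DMSO, and that of Lrp4 was 24.6% in Re and 10.1% in DMSO (n = 3 each). For Dok7 it was 25.3% in Re and 10.2% in DMSO, and for Musk 11.4% in Re and 3.47% in DMSO. Agrn also varied more in Re, at 9.49% against 5.45% in DMSO. Chrna1 and Chrnb1 varied less, at 2.66% and 11.3% in Re against 5.5% and 15.1% in DMSO. Whether the spread differed between the groups, for these genes or over all genes, was not tested. Musk stood at 1.48, 3.09 and 1.94 times Lrp4 in the Re libraries and at 1.70, 1.93 and 1.57 times in the DMSO libraries.

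The order of the mean levels over the 6 libraries of the Re table was Chrna1, Chrnb1, Rapsn, Agrn, Musk, Lrp4, Dok7, Chrnd, Chrng and Chrne. In this order the ranges of Chrnb1 (13.6 to 19.2 TPM) and Rapsn (10.9 to 13.9 TPM) overlapped, as did those of Rapsn and Agrn (8.07 to 11.1 TPM) and those of Lrp4 (2.09 to 3.47 TPM) and Dok7 (1.51 to 2.49 TPM). Within each library, however, the upper gene of each of these pairs was above the lower one in 6 of 6 libraries. Chrng and Chrne, both at 0 in 4 of the 6, could not be ordered. Set against all genes above 0 in the same library, Chrna1 exceeded 78.5% to 80.5% of them, Rapsn 62.5% to 68.1%, Musk 44.9% to 53.4% and Dok7 33.6% to 44.3%.

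**Figure D2:**
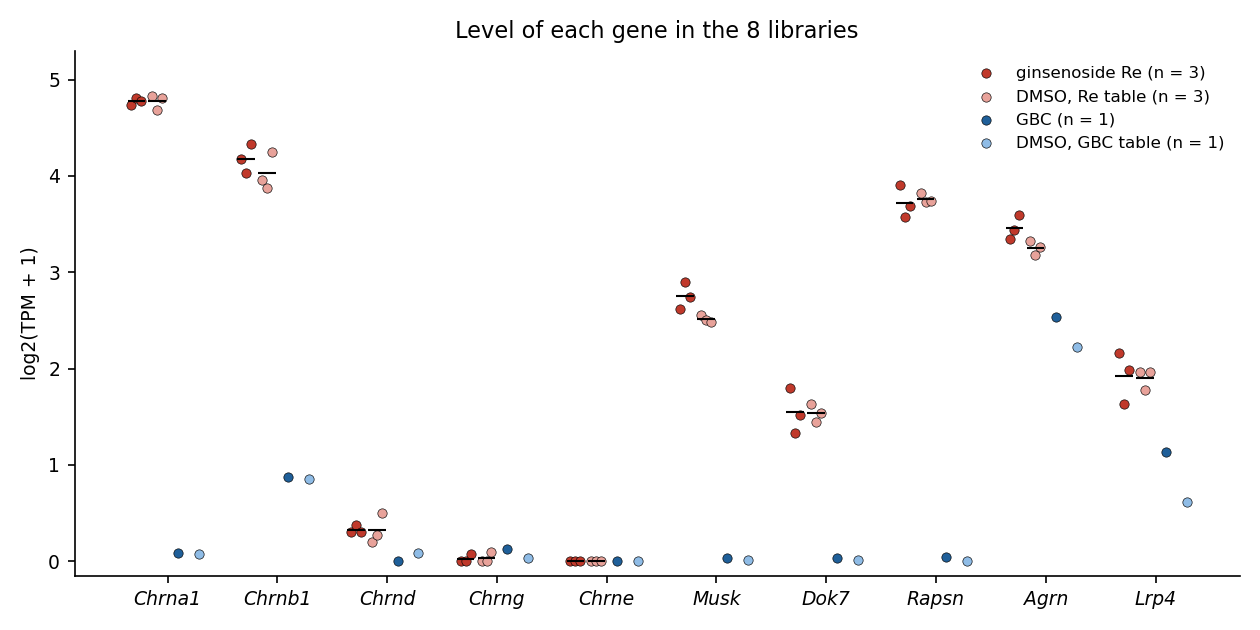
Points give log2(TPM + 1) of each of the 10 genes in each library, by group from left to right (Re, its DMSO, GBC, its DMSO), with bars at the mean of groups of 3. Chrna1, Rapsn, Musk and Dok7 are present in all 6 libraries of the Re table and near 0 in the GBC table, where Chrnb1 is at 0.83 TPM in GBC and 0.81 TPM in DMSO, while Agrn and Lrp4 are present in both.

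In both libraries of the GBC table the receptor and most of its clustering machinery were at or near 0, while Agrn and, at lower levels, Lrp4 and Chrnb1 were present. Agrn was at 4.80 TPM in the GBC library and 3.66 TPM in its DMSO library, above 65.5% of the genes detected in the GBC library and 66.8% of those in the DMSO library. In the Re table it stood above 54.4% to 61.4% of the genes detected. Counted from the highest gene, its rank was 7293 in GBC and 7036 in its DMSO library, and 7173 to 7627 in the Re table. Genes above 0 numbered 21185 in GBC and 21200 in its DMSO library, and 16527 to 19006 in the Re table, which moves such percentages. Lrp4 was at 1.20 TPM in GBC and 0.53 TPM in DMSO, and Chrnb1 at 0.83 TPM in GBC and 0.81 TPM in DMSO. For Chrna1 the values were 0.06 TPM in GBC and 0.05 TPM in DMSO, and for Rapsn 0.03 TPM in GBC and 0 TPM in DMSO. Musk and Dok7 each had 0.02 TPM in GBC and 0.01 TPM in DMSO, where 0.01 TPM is the smallest step of the deposited values. Chrnd was at 0 TPM in GBC and 0.06 TPM in DMSO, and Chrng at 0.09 TPM in GBC and 0.02 TPM in DMSO.

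Relative to Agrn in the same library, a measure that does not depend on the scaling, Chrna1 was at 239.5% to 315.2% in the Re table and at 1.25% to 1.37% in the GBC table. Musk was at 51.6% to 65.8% of Agrn in the Re table and at 0.273% to 0.417% in the GBC table. Chrnb1 was at 156.0% to 210.4% of Agrn in the Re table and at 17.3% to 22.1% in the GBC table. For Lrp4 the ranges overlapped, at 21.3% to 37.8% of Agrn in the Re table and 14.5% to 25.0% in the GBC table. By their TPM Chrna1, Rapsn, Musk and Dok7 were near 0 in the GBC table alone, and Chrnd, Chrng and Chrne were near 0 in both. Agrn, Lrp4 and Chrnb1 were present in both, though Chrnb1 averaged 16.3 TPM over the Re table and 0.82 TPM over the GBC table. In RNA from a whole culture, fewer cells of a type and less RNA per cell cannot be told apart. The part of the identity genes given above in these levels was not tested.

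**Figure D3:**
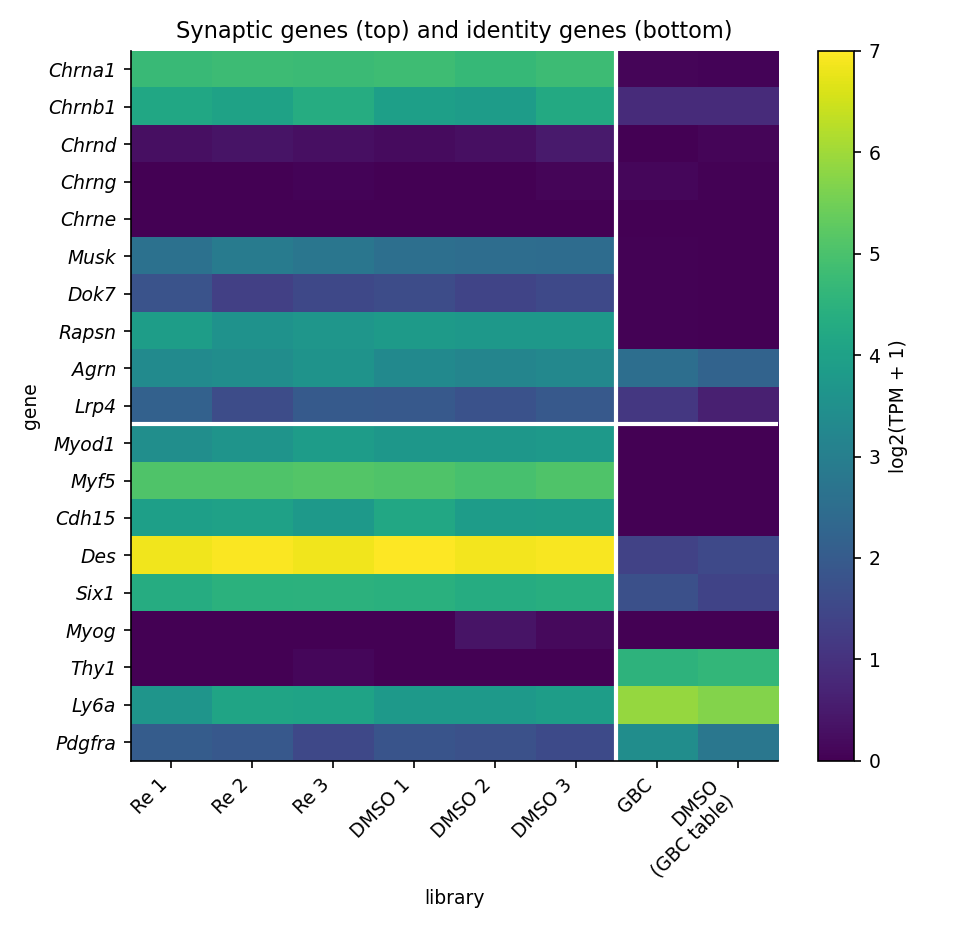
Colour gives log2(TPM + 1) for the 10 junction genes (above the white line) and 9 identity genes (below it) in the 8 libraries, Re table left of the vertical line and GBC table right of it. Chrna1, Chrnb1 and Rapsn are bright in the Re table, as are Myod1, Myf5 and Cdh15, while Musk is darker there, at 4.58 to 6.46 TPM. Thy1 is bright in the GBC table, at 22.1 and 23.8 TPM in GBC and its DMSO library.

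Some of the 10 genes differed between the tables, as did Myod1 and Myf5, and a link between them was not tested. The sequences before the starts of the genes were read for the E-box. This is the site that MyoD family factors and their partners bind, searched as CANNTG, which reads the same on both strands. RefSeq sequences on GRCm38.p6 were found for 7 of the 10 genes, and the 250 bases before each start were searched. Chrnd, Rapsn and Lrp4 had no entry. The genes shown are a pair high in the Re table with Musk (Chrna1, Chrnb1, Musk), the fetal and adult subunits near 0 in all libraries (Chrng, Chrne), and Agrn, present in both tables. Capitals mark CANNTG and, in Chrne, also CCGGAA, the N-box bound by the ETS factor GABP at synaptic genes.
The windows lie at chr2:73580339-73580588 (minus strand), chr11:69795938-69796187 (minus), chr4:58285712-58285961 (plus), chr1:87205561-87205810 (plus), chr11:70619195-70619444 (minus) and chr4:156197489-156197738 (minus, the first of its 2 listed starts), each printed 5′ to 3′ on the gene's own strand.
Chrna1: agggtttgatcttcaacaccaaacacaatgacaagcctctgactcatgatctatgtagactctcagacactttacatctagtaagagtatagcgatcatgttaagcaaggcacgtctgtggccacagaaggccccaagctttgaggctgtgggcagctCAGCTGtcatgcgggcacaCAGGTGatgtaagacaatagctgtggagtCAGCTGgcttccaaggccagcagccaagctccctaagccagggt
Chrnb1: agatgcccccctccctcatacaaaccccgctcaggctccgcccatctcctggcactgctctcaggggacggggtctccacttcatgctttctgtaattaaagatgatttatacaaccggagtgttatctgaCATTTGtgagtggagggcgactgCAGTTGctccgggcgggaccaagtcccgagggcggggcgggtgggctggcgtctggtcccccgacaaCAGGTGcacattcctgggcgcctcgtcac
Musk: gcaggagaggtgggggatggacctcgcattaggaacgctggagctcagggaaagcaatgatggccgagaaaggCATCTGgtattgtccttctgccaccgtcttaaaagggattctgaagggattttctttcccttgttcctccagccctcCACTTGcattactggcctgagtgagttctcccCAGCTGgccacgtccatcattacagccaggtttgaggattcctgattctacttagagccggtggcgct
Chrng: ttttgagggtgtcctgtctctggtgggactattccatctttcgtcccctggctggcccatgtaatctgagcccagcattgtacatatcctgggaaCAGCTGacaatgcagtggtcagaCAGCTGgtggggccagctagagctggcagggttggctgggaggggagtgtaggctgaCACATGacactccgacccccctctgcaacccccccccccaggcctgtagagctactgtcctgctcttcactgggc
Chrne: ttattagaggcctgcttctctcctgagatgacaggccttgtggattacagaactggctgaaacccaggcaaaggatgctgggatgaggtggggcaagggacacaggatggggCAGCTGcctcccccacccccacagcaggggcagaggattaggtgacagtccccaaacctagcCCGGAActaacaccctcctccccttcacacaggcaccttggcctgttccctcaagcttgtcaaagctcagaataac
Agrn: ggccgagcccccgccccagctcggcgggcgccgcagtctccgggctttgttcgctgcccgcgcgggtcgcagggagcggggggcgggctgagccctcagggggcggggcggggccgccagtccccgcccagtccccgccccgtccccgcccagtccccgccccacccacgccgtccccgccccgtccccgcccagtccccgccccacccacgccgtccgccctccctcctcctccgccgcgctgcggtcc

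Chrna1 held 3 E-boxes, which begin 92, 73 and 44 bases before the start, and the outer pair have the form CAGCTG. Chrnb1 held 3 as well, at 119, 96 and 29 bases, and Musk 3, at 177, 100 and 68 bases, the last with the form CAGCTG. Chrng, near 0 in all 8 libraries, held 3 too, at 155, 132 and 75 bases, of which the first and second are CAGCTG. Chrne held 1 E-box, a CAGCTG at 138 bases, and 1 N-box, CCGGAA, at 76 bases. The window of Agrn shown held none, its other window held 1 and Dok7 held 1 and 0 in its 2 windows. Of 32851 RefSeq windows of the same length, 12.2% held at least 3 CANNTG, 13% at least 1 CAGCTG, 1.26% at least 2, and 12% at least 1 CCGGAA on either strand. CAGCTG is itself one form of CANNTG. Such matches describe letters only, and windows with 3 E-boxes belonged to genes at 26.4 TPM (Chrna1) and at 0.020 TPM (Chrng) on average over the 6 libraries.

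Between Re and DMSO none of the receptor or clustering genes passed the test. In limma's moderated test on log2(TPM + 1), 0 of the 7 genes that averaged 1 TPM or more had a Benjamini-Hochberg adjusted p under 0.05, and 0 had an unadjusted p under 0.05. Over all 11967 genes tested the share called was 0%, with 745 at an unadjusted p under 0.05. A fit without trend called 0 genes too, with 732 at an unadjusted p under 0.05, and a robust fit called 0, with 728. Chrnd, Chrng and Chrne were below 1 TPM and were not tested.

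As deposited, Musk had the largest difference of the 7, at 5.77 ± 0.657 TPM in Re and 4.72 ± 0.164 TPM in DMSO (SD, n = 3 each), which is 0.24 on the log2(TPM + 1) scale (95% confidence interval -0.056 to 0.54, limma, adjusted p = 0.687). Agrn was at 10.02 ± 0.951 TPM in Re and 8.55 ± 0.466 TPM in DMSO, or 0.20 on that scale (interval -0.058 to 0.47, limma, adjusted p = 0.687). Chrnb1 averaged 17.2 ± 1.94 TPM in Re and 15.4 ± 2.33 TPM in DMSO, or 0.15 (interval -0.16 to 0.46, limma, adjusted p = 0.717). For Chrna1 the means were 26.4 ± 0.702 TPM in Re and 26.4 ± 1.46 TPM in DMSO, and the interval of the difference reached from -0.20 to 0.21. Rapsn, at 12.2 ± 1.55 TPM in Re and 12.6 ± 0.519 TPM in DMSO, differed by -0.045 (interval -0.31 to 0.22). Lrp4 and Dok7 differed by 0.023 and 0.010, and their intervals, -0.40 to 0.44 and -0.42 to 0.44, were the widest; both differences were negative, at -0.060 and -0.063, after the median-of-ratios scaling described next. The 1 TPM added before taking logs can understate the change of a low gene: with 0.1 TPM added, Musk differed by 0.28.

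The groups did not overlap for 2 of the 7 genes, Musk and Agrn, both higher in Re, where 15% of all genes tested were so separated, 13.7% with Re higher and 1.27% with Re lower. The median difference of the 7 was 0.023, below the 0.105 of all genes tested. This shift of all genes was 0.000 after median-of-ratios scaling, which brings it near 0 by design. In that scaling the DMSO replicate 2 library, with the lowest listed sum, was scaled up by a size factor of 0.893. After it, 626 genes were separated with Re higher and 598 with Re lower, against 1639 and 152 as deposited. Musk then differed by 0.14 and overlapped, at 5.08, 6.28 and 5.26 in Re and 4.78, 5.24 and 4.69 in DMSO in scaled TPM. Agrn differed by 0.10 and still did not overlap, at 9.06, 9.55 and 10.2 in Re and 8.78, 9.04 and 8.79 in DMSO. After quantile normalization, and with mitochondrially encoded genes left out, Agrn and Musk both overlapped. Chrna1 was then the 1 gene of the 7 that did not, beside 10.25% of all genes tested in each case. With each library's listed TPM brought to the same sum, a scaling chosen after seeing the data, Chrna1, Musk and Agrn did not overlap. Those 3 of the 7 stood beside 11.35% of all genes tested. After median-of-ratios scaling Chrna1 did not overlap either and changed direction, to -0.11 (limma, adjusted p = 0.963). Its scaled TPM there were 25.3, 26.3 and 24.4 in Re, all below 26.7, 27.7 and 27.7 in DMSO.

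**Figure D4:**
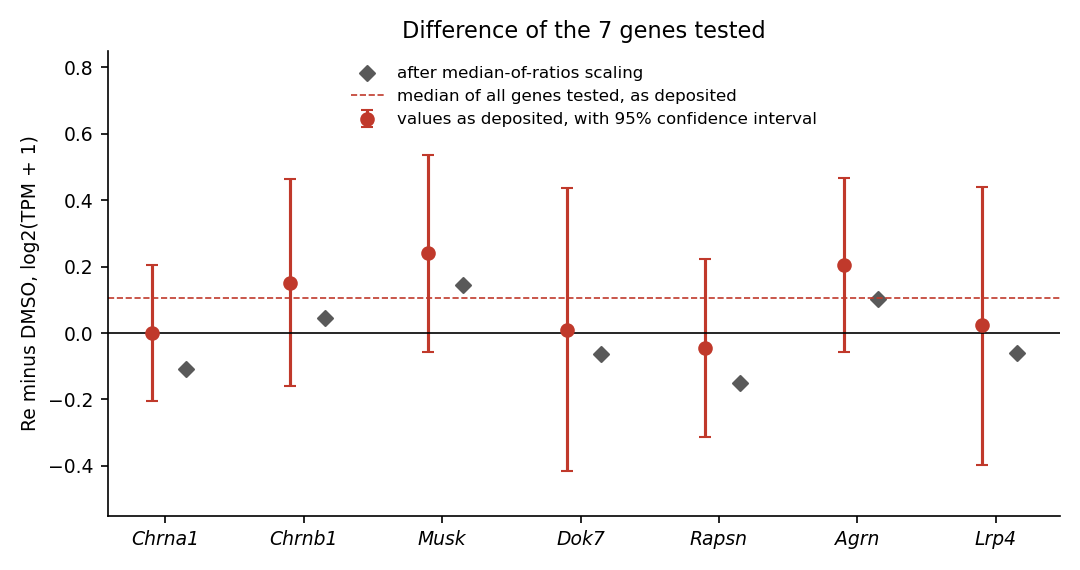
Circles give the Re minus DMSO difference in log2(TPM + 1) of the 7 genes tested with 95% confidence intervals (limma, n = 3 each), diamonds the difference after median-of-ratios scaling, and the dashed line the median of all genes as deposited, 0.105. Every interval includes 0, and the scaled values of Chrna1, Dok7, Rapsn and Lrp4 lie below it.

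Between GBC and its DMSO library there was 1 library each, so the difference has no replicate check and no test was made. Of the 10 genes Agrn alone averaged 1 TPM or more there, and it was 0.32 higher in GBC on the log2(TPM + 1) scale, equal to the median of 0.32 over the 10989 genes at that level. It did not reach a difference of 1, the size counted as past the rule, which 4.75% of those genes reached, 4.35% with GBC higher and 0.4% with GBC lower. After median-of-ratios scaling 121 of 187 genes past the rule were higher, which is 64.7% in place of 91.6%, and Agrn differed by -0.063. With each library's listed TPM brought to the same sum, a scaling chosen after seeing the data, Agrn was 0.13 higher. Lrp4, at a mean of 0.865 TPM, was 0.52 higher in GBC as deposited and 0.32 higher after median-of-ratios scaling. Chrnb1 differed by 0.016 as deposited and by -0.20 after that scaling, and none of the other 7 genes reached 0.1 TPM in either library.

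The other genes of the junction were described from 7 further lists, 81 genes in all, most of which act in many cell types. Between Re and DMSO 0 of the 55 that averaged 1 TPM or more passed the test in either direction (limma, adjusted p under 0.05), and 2 had an unadjusted p under 0.05. Their median difference was 0.072, beside 0.105 over all genes. Of the 55, 42 were higher in Re, and of all 11967 genes tested 9278 were. In the GBC libraries 7 of 51 were past the size rule, all higher in GBC, and their median was 0.494, beside 0.32 over all genes. Over all genes 4.75% were past it. After median-of-ratios scaling 1 of the 7, Dpagt1, was past it (1.71% of all genes), and after quantile normalization 2 were, Dpagt1 and Rac1 (1.80% of all genes). With mitochondrially encoded genes left out 6 were (4.85% of all genes), as at the common sum (3.96%).

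Of the kinases, adaptors and small GTPases downstream of agrin and MuSK, 18 of 18 were expressed in the Re table and in the GBC table, and 0 of 18 passed the test in Re. Crkl, an adaptor that binds DOK7, was at 15.99, 15.99 and 17.7 TPM in Re and at 16.5, 25.4 and 20.4 TPM in DMSO, a difference of -0.29. Dnaja3, a co-chaperone that binds MuSK, and Ctnnb1, beta-catenin, differed by 0.21 and 0.15. For 2 of the 18, Ctnnb1 among them, all Re values were above all DMSO values, beside 13.7% of all genes tested. In GBC 3 of the 18 were past the size rule. Rac1, a GTPase of the actin skeleton, was at 80.4 TPM in GBC and 31.3 TPM in DMSO, and Crkl and Fyn, a Src family kinase, were 1.24 and 1.21 higher.

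The scaffold of utrophin, dystroglycan and their partners, which anchors receptor clusters, had 8 of 10 members tested in Re and 0 called. Dtnb, beta-dystrobrevin, was at 7.68, 7.44 and 5.83 TPM in Re and 3.87, 5.03 and 6.06 TPM in DMSO, with overlap and a difference of 0.42 (limma, adjusted p = 0.687). Sntb2, a syntrophin, and Macf1, a linker of actin and microtubules, differed by 0.16 and 0.15. In GBC 1 of 7 was past the rule: Plec, plectin, at 35.4 TPM in GBC and 16.7 TPM in DMSO, while Utrn, utrophin, and Dag1, dystroglycan, were 0.98 and 0.61 higher. Dmd, dystrophin, was at or near 0 in all 8 libraries.

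Of the genes of the synaptic cleft, 8 of 12 were tested in Re and 0 called, and Nid2, Lamb2 and Lama5, of the basal lamina, differed by 0.21, 0.24 and 0.14. The list differed in composition between the tables. Lama5, a laminin alpha chain, ran from 10.4 to 15.8 TPM in the Re table and was at 0.27 TPM in both GBC and its DMSO library, whereas Lama4 was at 0 to 0.02 TPM in the Re table and at 3.26 TPM in GBC and 2.09 TPM in DMSO. Lama4, Dmd, Cdh15, Pax7, Thy1, Dcn, Lum, Ache, Bche and Colq lie outside the rule for naming genes and were named after their values were seen. In GBC 2 of 6 were past the rule, Nid1 at 1.23 and the perlecan gene Hspg2 at 1.13, with Col4a2, a basement membrane collagen, at 0.77. Ache, Bche and Colq, the cholinesterases and the collagen tail that anchors them, were below 1 TPM in all 8 libraries.

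Neuregulin receptors and factors of synaptic transcription had 6 of 10 members tested in Re, with 0 called. Nrg1, neuregulin, was at 18.7, 18.3 and 21.0 TPM in Re and at 16.7, 15.6 and 18.5 TPM in DMSO, a difference of 0.18. Gabpb1, a subunit of GABP, and Erbb2, the neuregulin coreceptor, differed by -0.18 and 0.21. In GBC 0 of 6 were past the rule, and Erbb2, Hdac4, a deacetylase that responds to nerve activity, and Nrg1 were 0.78, 0.65 and 0.60 higher. The 5 glycosylation enzymes whose loss causes myasthenia in people had 0 called in Re, where Alg14, Alg2 and Gmppb differed by 0.25, 0.08 and 0.07. In GBC 1 of 5 was past the rule, Dpagt1 at 6.14 TPM in GBC and 1.13 TPM in DMSO, beside Gfpt1 and Alg2 at 0.69 and 0.40 higher. Of 14 other nicotinic subunit and assembly genes Unc50 alone was expressed, at 29.6, 33.7 and 32.0 TPM in Re and at 29.1, 24.5 and 27.0 TPM in DMSO. Its groups did not overlap, with Re higher, as was so for 13.7% of all genes tested. The difference of 0.24 did not pass adjustment (limma, adjusted p = 0.687), and Unc50 was 0.13 higher in GBC.

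Myogenic factors and their inhibitors had 9 of 12 members tested in Re and 0 called, and a median of -0.001. Id1, an inhibitor of MyoD family factors, Mef2d and Id3 differed by 0.23, -0.15 and 0.10. In GBC 0 of 8 were past the rule, and Mef2a, Mef2d and Mef2c, partners of the myogenic factors, were 0.92, 0.83 and 0.75 higher. Myod1 itself was at 9.95, 11.3 and 13.6 TPM in Re and 11.9, 12.1 and 12.6 TPM in DMSO, and Myf5 at 32.6, 32.4 and 34.2 TPM in Re and 32.7, 30.2 and 32.6 TPM in DMSO. Both overlapped between the groups.

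**Figure D5:**
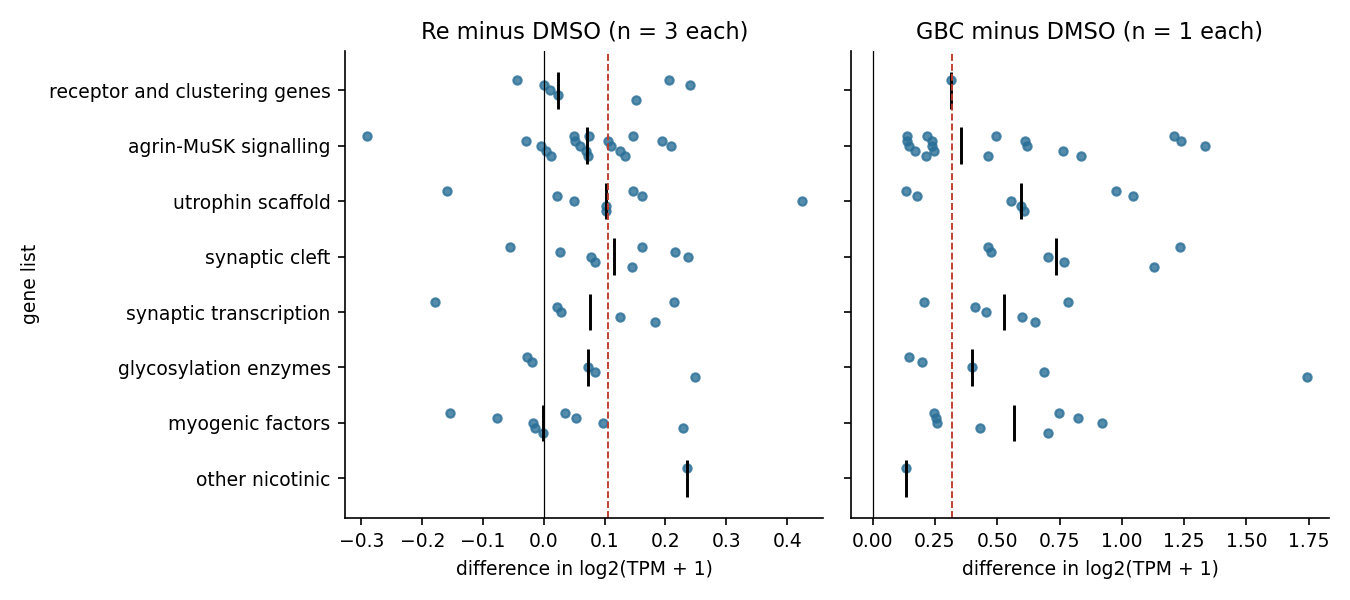
Each point is the difference of a gene in log2(TPM + 1), by list with the receptor and clustering genes at the top, for Re minus DMSO (left, n = 3 each, genes averaging 1 TPM or more) and GBC minus DMSO (right, n = 1 each, same filter), with a black bar at the median of a list and a dashed line at the median of all genes, 0.105 and 0.32. Points of most lists fall on both sides of the dashed line on the left, and points past 1 appear only on the right, where 7 of the 51 other junction genes lie.

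For the 3 junction genes with the highest mean in the Re table, the genes with the most similar levels were sought over all 8 libraries. The measure was the root mean square difference in log2(TPM + 1). Symbols with the form of predicted or unnamed gene models, pseudogenes or mitochondrially encoded genes were left out. Nearest to Chrna1 were Panx1, a channel protein gene (0.099), and Ptprk, a receptor phosphatase gene (0.105), both at 0 to 0.02 TPM in the GBC table. Nearest to Chrnb1 were Hoxa10, a homeobox gene (0.121), which was at 0.80 TPM in GBC and 0.79 TPM in its DMSO library, and Iffo2 (0.149). Nearest to Rapsn were Jph2, which encodes a junctophilin of muscle membrane contacts (0.080), at 0.01 TPM in both libraries of the GBC table, and Tpsab1, a tryptase gene (0.106), at 0 in both.

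In GENCODE M21 the exons of 9 of the 10 overlapped no other gene's exons, and those of Rapsn overlapped an antisense gene model by 4 bases. Chrna1os, an antisense gene near Chrna1 with no exon in common, was present in both tables. It was at 3.77, 3.58 and 1.33 TPM in Re, at 1.54, 2.18 and 4.58 TPM in their DMSO libraries, and at 2.54 TPM in GBC and 2.81 TPM in its DMSO library. It was named after its values were seen.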

How the data were processed

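Gene expression was measured by RNA sequencing of total RNA in 8 libraries. Tools named in the submitters' processing notes are STAR and RSEM and, as builds, GRCh38 and GRCm39; versions and the role of each build were not found in the labels. The authors deposited log2(TPM + 1) for each Ensembl gene; back-transformed, they were multiples of 0.01 TPM within 2.0e-04. Read depth is unknown. Replicate numbers are those of the sample titles, while the descriptions number the Re libraries otherwise. Genes were matched by deposited symbol; Nrg1, with 2 IDs, was read from the first.

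The test of Re against DMSO was limma 3.58.1 (R 4.3.3; lmFit, eBayes with trend, two-sided, no block) on genes averaging 1 TPM or more, pseudocount 1, Benjamini-Hochberg adjustment over all of them and a threshold of 0.05. The GBC table has 1 library per group, so differences of at least 1 (log2) among genes averaging 1 TPM or more were counted. The limma step was checked on simulated libraries in which 200 genes were changed. It called 24% of genes changed 1.5-fold, 66.8% of those changed 2-fold and 0.0527% of unchanged genes. Changes of these sizes can therefore go uncalled. Promoter sequences are RefSeq, GRCm38.p6. Tables and figures used Python 3.11.15 with pandas 2.3.3 and matplotlib 3.10.9.

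The members, lists and tests were chosen with earlier results of these data known. All 10 genes are named. From each list up to 3 genes with the smallest p in Re and up to 3 with the largest difference in GBC are named, and the 2 genes nearest in level to each of the 3 highest members; Myod1 and Myog are named for their levels. Alternatives covered pseudocounts of 0.5 and 0.1, filters, scalings, limma options, leaving out each library and blocking by replicate number; rescaling to a common sum was added after seeing the data.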

Additional observations from a re-analysis of the deposited data

How the results depend on the processing

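Under every alternative run, 0 of the junction genes tested were called in Re, and Musk, Agrn and Chrnb1 kept a higher mean in Re, with differences of 0.13 to 0.31, 0.088 to 0.26 and 0.044 to 0.26 and adjusted p of 0.41 to 0.96, 0.40 to 0.96 and 0.68 to 0.99 in limma. With 4 scalings, differences of Chrna1, Dok7 and Lrp4 were negative: median-of-ratios to -0.109, -0.063 and -0.060, quantile normalization to -0.106, -0.068 and -0.068, leaving out mitochondrially encoded genes to -0.089, -0.060 and -0.051, and the common sum added after seeing the data to -0.065, -0.038 and -0.029. Under these scalings the median over all genes tested went from 0.105 to 0.0, 0.005, 0.022 and 0.045, in the same order. The cause of that shift was not tested. Leaving out 1 library at a time gave Chrna1 -0.044 to 0.028, Dok7 -0.116 to 0.122, Lrp4 -0.096 to 0.171, Rapsn -0.135 to 0.029, a median over the members of -0.038 to 0.168, and 0 to 7 called genes. Of the Re libraries, leaving out replicate 1 gave 3 calls, replicate 2 gave 1 and replicate 3 gave 7, and of the DMSO libraries replicate 1 gave 4, replicate 2 gave 6 and replicate 3 gave 0. The members' median was 0.152 at a mean of at least 5 TPM, where 5 members remained in the fit.

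For GBC, the genes past the size rule numbered 1112 at a pseudocount of 0.1, 346 at a mean of at least 5 TPM, 187 after median-of-ratios scaling and 198 after quantile normalization, against 522. Of the junction genes 0 at or above the level filter were past it under each; Lrp4, below the filter, reached 1.045 at a pseudocount of 0.1. The median of the members at that level, Agrn alone in the main analysis, was -0.063 and -0.088 after these scalings, 0.169 without mitochondrially encoded genes and 0.127 at the common sum (3 genes each), and 0.016 over the 9 members above 0 in either library; no member reached 5 TPM.

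With the replicate number as a block 0 genes were called, 810 had an unadjusted p under 0.05 and the smallest adjusted p was 0.427 in limma. Same-numbered libraries correlated at 0.163, 0.0771 and 0.0168 in their deviations across genes, so the numbers were not taken to pair them.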
